A study of Homo sapiens with 9 samples.

Results

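Cell-surface peptidases are enzymes anchored in the plasma membrane with their active site facing outward, where they cut short signalling peptides and end or alter their action. The 8 genes described here, Mme, Ece1, Ace, Anpep, Lnpep, Enpep, Dpp4 and Fap, were taken by symbol from the 17369 genes of the expression table, and all 8 had a row. Mme, which encodes neprilysin (CD10), was picked because it was lower in tumors of adapted cells, so its level in adapted against original tumors is a description and carries no test.

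RNA was sequenced from 9 whole orthotopic tumors of TBP3743, a murine anaplastic thyroid cancer line derived from B6129SF1 mice with thyroid-specific mutant Braf and thyroid-specific Trp53 deletion, so all groups carried both alterations. The original/B6129SF1 group held original cells grown in B6129SF1 mice. The adapted/B6129SF1 group held adapted cells, recovered after 3 rounds of subcutaneous passage through C57BL/6 mice, grown in B6129SF1 mice. The adapted/C57BL/6 group held the same adapted cells grown in C57BL/6 mice. Hosts were immunocompetent females aged 6 weeks, injected into the thyroid, and tumors were collected at day 14, with 3 tumors in each group. The adapted cells are 1 passaged population started from a single line, and a tumor also holds host stroma, vessels and immune cells. The sample labels name human as the organism and the cells as epithelial, whereas the line, the hosts and the aligned genome were of mouse.

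The authors gave expression as FPKM, fragments scaled to transcript length and library, so that levels of different genes can be set side by side. Read counts were not used here, and the absolute depth is unknown. Steps between low FPKM values gave an approximate depth of 0.962 to 1.35 relative to original/B6129SF1 replicate 1. The share of skeletal muscle transcripts in the FPKM sum was 7.23% for adapted/B6129SF1 replicate 3, 1.24% for adapted/C57BL/6 replicate 1 and no more than 0.15% for each other tumor. Among thyroid markers, the transcription factor gene Nkx2-1 averaged 33.1 FPKM in the original/B6129SF1 group, 34.7 in adapted/B6129SF1 and 35.2 in adapted/C57BL/6. Other thyroid markers were not as even. Pax8 averaged 0.982, 0.0872 and 0.536 FPKM in the same groups. Tg ranged from 0.0153 FPKM in original/B6129SF1 replicate 1 to 31.0 in adapted/C57BL/6 replicate 1, with 30.2 in original/B6129SF1 replicate 2. At least 5 of 9 thyroid markers stayed under 1 FPKM in every tumor of each group. The epithelial adhesion gene Epcam averaged near 1 FPKM in each group, with single tumors from 0.0949 to 2.49 FPKM, while keratin genes Krt8 and Krt18 were high.

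The peptidases fall into families that share a fold and a type of cut. Mme and Ece1 encode zinc endopeptidases of the neprilysin family, which cut inside peptides such as enkephalins, tachykinins, natriuretic peptides and endothelin precursors. Ace encodes angiotensin-converting enzyme, which removes pairs of residues from the carboxyl end of angiotensin I and bradykinin. Anpep (CD13), Enpep and Lnpep encode aminopeptidases that remove single residues from the amino end, and Dpp4 (CD26) and Fap encode serine peptidases that cut after proline, Fap being known from activated fibroblasts.

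Of the 8 genes, 6 passed the filter for testing, at least 1 FPKM in at least 3 tumors. Dpp4 and Enpep did not. Tested genes were compared on log2(FPKM + 1) with limma over the 9 tumors, and a gene was called at an adjusted p under 0.05 with an absolute log2 fold change above 1. Apart from Mme, Ace and Fap were called in adapted/B6129SF1 against original/B6129SF1, both higher, where 3.22% of all 10263 genes tested were called, 2.36% higher and 0.857% lower. Fap passed the filter only through the tumors of adapted cells, where it was high, so its test results are a description. In adapted/C57BL/6 against original/B6129SF1, Ace was called higher, against a background of 3.09% called, 2.42% higher and 0.672% lower. Both comparisons use the same original/B6129SF1 tumors. The median log2 fold change of the 6 genes tested was 0.46 in adapted/B6129SF1 and 0.45 in adapted/C57BL/6, and that of all genes tested was -0.03 in each. Without Mme, which was picked on this contrast, the median of the other 5, Fap included, was 0.92 and 0.89.

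**Figure D1:**
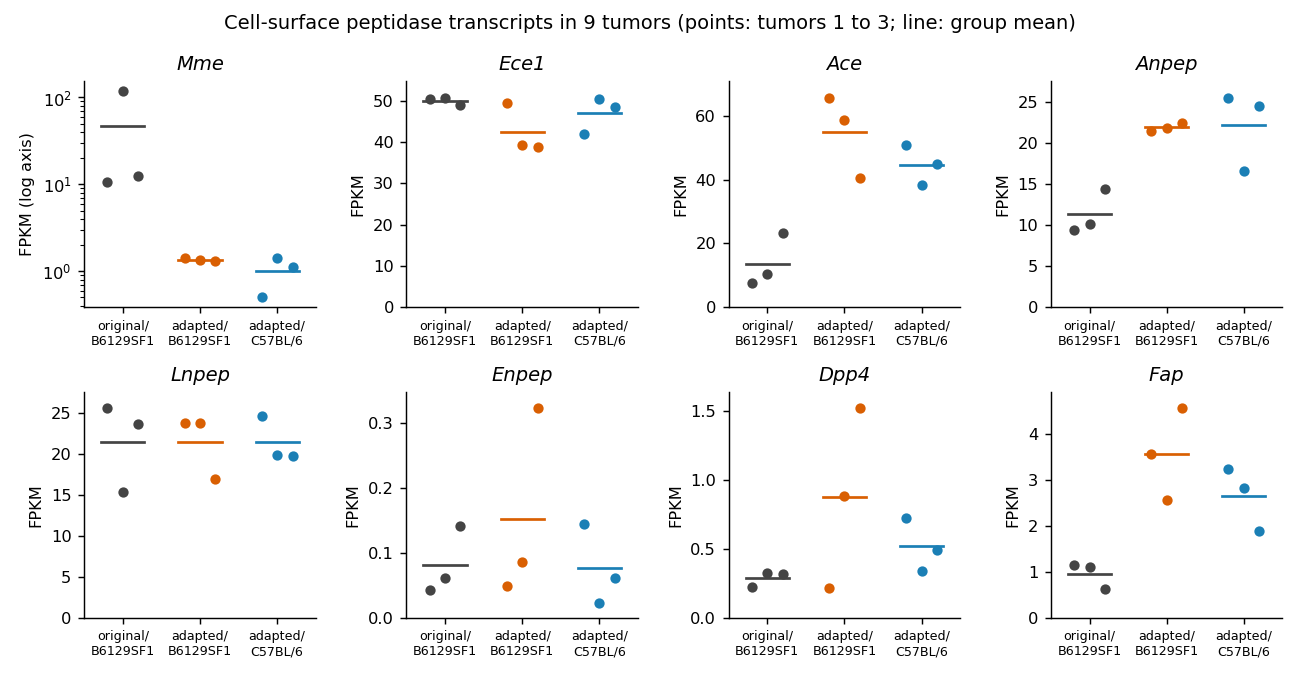
FPKM of the 8 cell-surface peptidase genes in each of 9 tumors by group, as points for single tumors and a line for the group mean. The axis is logarithmic for Mme and linear from 0 for the other genes. Mme lies between 10.7 and 118 FPKM in the original/B6129SF1 tumors and at or under 1.44 FPKM in all 6 tumors of adapted cells, while Ace, Anpep and Fap lie higher in every tumor of adapted cells than in any original/B6129SF1 tumor.

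Mme transcripts were abundant in the original/B6129SF1 tumors and scarce in tumors of adapted cells. In humans, neprilysin is known as a surface marker of early B lymphocytes, and it is also found on fibroblasts and several epithelia. Mme measured 10.7, 118 and 12.6 FPKM in original/B6129SF1 replicates 1, 2 and 3. It measured 1.41, 1.34 and 1.30 FPKM in the adapted/B6129SF1 tumors and 0.509, 1.44 and 1.11 FPKM in the adapted/C57BL/6 tumors. Every tumor of adapted cells lay below every original/B6129SF1 tumor, and original/B6129SF1 replicate 2 stood far above the other two. The lowest original/B6129SF1 tumor was 7.43-fold above the highest tumor of adapted cells. Means were 47.0 ± 61.2 FPKM in original/B6129SF1, 1.35 ± 0.055 in adapted/B6129SF1 and 1.02 ± 0.471 in adapted/C57BL/6 (SD, n = 3 each).

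The size of the Mme difference depended on original/B6129SF1 replicate 2. The original/B6129SF1 mean was 34.9-fold the adapted/B6129SF1 mean and 46.1-fold the adapted/C57BL/6 mean. Without that tumor the original/B6129SF1 mean was 11.6 FPKM, 8.64-fold and 11.4-fold the means of the adapted groups. The log2 fold change of Mme was -3.50 in adapted/B6129SF1, the rank 3 fall among all genes tested, and -3.75 in adapted/C57BL/6, the rank 2 fall. As tumors were left out in turn these values ranged from -4.10 to -2.43 and from -4.34 to -2.67. In whole-tumor RNA, fewer cells of a type and less RNA per cell cannot be told apart.

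Few genes shared the excess of original/B6129SF1 replicate 2. Mme was 11.0-fold higher there than in replicate 1 and 9.33-fold higher than in replicate 3. Of the genes tested, 12 were more than 5-fold higher in replicate 2 than in both other original/B6129SF1 tumors, against 3 for replicate 1 and 5 for replicate 3. Of the 12, 5 reached 5 FPKM in that tumor, and they are named here after their values were seen: Mme, Ogn, Omd, Adh7 and Akr1c14. Ogn and Omd encode osteoglycin and osteomodulin, small leucine-rich proteoglycans of the extracellular matrix. Ogn measured 25.7, 268 and 18.5 FPKM in original/B6129SF1 replicates 1, 2 and 3, and Omd measured 7.18, 52.0 and 6.77 FPKM. In tumors of adapted cells Ogn lay between 11.3 and 48.6 FPKM and overlapped original/B6129SF1 replicates 1 and 3, as did Adh7. Omd, at 3.97 to 4.60 FPKM, and Akr1c14, at 0.115 to 0.505 FPKM, lay below every original/B6129SF1 tumor, like Mme.

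Markers of early B lymphocytes, the cells for which CD10 is best known in humans, were near 0 in all groups. Vpreb3 and Igll1, which encode surrogate light chain components, were listed at 0 in all 9 tumors, and 7 of the 8 markers were under 1 FPKM in every tumor. Their summed level was at most 2.80 FPKM in any tumor. Fibroblast markers, 12 genes, summed to 1199 to 1400 FPKM in original/B6129SF1, 1313 to 2128 in adapted/B6129SF1 and 1475 to 1727 in adapted/C57BL/6, and none of the 12 was at 0 in a group. The epithelial marker sum was 577 to 970 FPKM in original/B6129SF1, 265 to 548 in adapted/B6129SF1 and 371 to 423 in adapted/C57BL/6. Nearly all of it was Krt8 and Krt18, which averaged 510 and 315 FPKM in original/B6129SF1, where the sum averaged 831. Within original/B6129SF1, replicate 2 had the highest Mme and the lowest epithelial sum. Of the 6 epithelial markers tested, Krt8 was called lower in both comparisons and no other was called. All 6 had a lower mean log2 value in adapted/B6129SF1, while in adapted/C57BL/6 3 were lower and 3 higher. The part of epithelial content in the Mme difference was not tested.

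The genes whose pattern was most like that of Mme were found by Pearson's r of log2(FPKM + 1) over the 9 tumors, among genes with a mean of at least 5 FPKM. They were Gsto1 (r = 0.987), Sirt5 (r = 0.981), Cav2 (r = 0.979), Avpi1 (r = 0.976) and Ccdc50 (r = 0.974). Gsto1 encodes an omega-class glutathione transferase, Sirt5 a mitochondrial deacylase and Cav2 a caveolin. These genes varied far less than Mme. Gsto1 averaged 254 FPKM in original/B6129SF1, 141 in adapted/B6129SF1 and 145 in adapted/C57BL/6. Over the 8 tumors without original/B6129SF1 replicate 2, r lay between 0.917 and 0.959 for the 5 genes. The 9 points share the difference between original and adapted tumors, so r describes these tumors and was not tested.

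**Figure D2:**
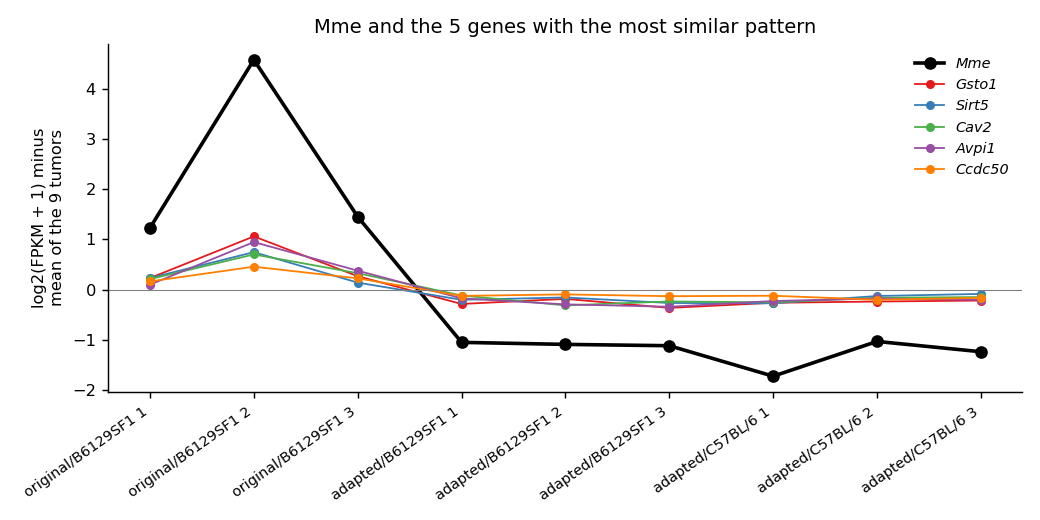
Log2(FPKM + 1) minus the mean over the 9 tumors, for Mme (black) and the 5 genes with the highest Pearson's r with Mme, by tumor. All 6 genes are highest in original/B6129SF1 replicate 2 and low in the 6 tumors of adapted cells, with r between 0.974 and 0.987, and Mme has by far the widest range.

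Ece1, the other neprilysin-family gene of the set, encodes endothelin-converting enzyme 1 and moved little. It measured 50.5, 50.8 and 49.0 FPKM in the original/B6129SF1 tumors, 49.5, 39.4 and 38.7 in adapted/B6129SF1, and 42.1, 50.4 and 48.6 in adapted/C57BL/6. The groups overlapped in both comparisons with original/B6129SF1. The log2 fold change was -0.24 (95% interval -0.50 to 0.02) in adapted/B6129SF1, with an adjusted p of 0.227 from limma. In adapted/C57BL/6 it was -0.09 (95% interval -0.36 to 0.17, adjusted p = 0.67 from limma). Mme was 2.32-fold the Ece1 level in original/B6129SF1 replicate 2 and 0.212-fold and 0.258-fold in replicates 1 and 3. In tumors of adapted cells it was at most 0.034-fold.

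Ace was higher in all 6 tumors of adapted cells. The enzyme is abundant on endothelium and is also made by macrophages. Ace measured 7.54, 10.2 and 23.1 FPKM in the original/B6129SF1 tumors, 65.6, 58.8 and 40.4 in adapted/B6129SF1, and 50.7, 38.2 and 44.8 in adapted/C57BL/6. The groups did not overlap, and the lowest tumor of adapted cells was 1.65-fold the highest original/B6129SF1 tumor, replicate 3. Means were 13.6 ± 8.33, 54.9 ± 13.1 and 44.6 ± 6.22 FPKM (SD, n = 3 each).

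The rise of Ace in adapted/B6129SF1 was 4.03-fold by the means, or 2.05 on the log2 scale (limma, standard error 0.35, adjusted p = 0.0129). In adapted/C57BL/6 it was 3.27-fold, or 1.78 on the log2 scale (limma, standard error 0.35, adjusted p = 0.0218). The adapted/B6129SF1 call was kept in all 18 alternative settings of the fit, with adjusted p between 0.00923 and 0.0417 from limma. The adapted/C57BL/6 call was kept in 12 of 18. It was lost without original/B6129SF1 replicate 1, original/B6129SF1 replicate 2, adapted/C57BL/6 replicate 1 or adapted/C57BL/6 replicate 3 (adjusted p = 0.0614, 0.0695, 0.066 and 0.0869 from limma), with both muscle-rich tumors left out (0.0515) and with a replicate block (0.0606).

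Ace was also higher relative to the markers of both cell types. The 12 endothelial markers summed to 93.0 to 116 FPKM in original/B6129SF1, 98.5 to 150 in adapted/B6129SF1 and 111 to 139 in adapted/C57BL/6. None of the 12 was called in any of the 3 comparisons, and none was at 0 in a group. Ace was 8.11% to 20.0% of that sum in original/B6129SF1, 26.9% to 59.7% in adapted/B6129SF1 and 30.7% to 40.2% in adapted/C57BL/6, without overlap between original and adapted tumors. The 9 macrophage markers summed to 2122 to 2743 FPKM in original/B6129SF1, 2697 to 4057 in adapted/B6129SF1 and 1730 to 3283 in adapted/C57BL/6, and none was called. Relative to the sum of these markers Ace was 0.355% to 0.905% in original/B6129SF1 and 0.995% to 2.21% in the tumors of adapted cells, again without overlap. This holds for the sum and not for each marker. Ace and the macrophage marker Fcgr1 measured 23.1 and 20.6 FPKM in original/B6129SF1 replicate 3, and 44.8 and 46.1 in adapted/C57BL/6 replicate 3. In level, 11 of the 12 endothelial markers had a higher mean log2 value in adapted/B6129SF1 than in original/B6129SF1 and 12 of 12 in adapted/C57BL/6, as did 7 and 5 of the 9 macrophage markers. The part of endothelial and macrophage content in the Ace difference was not tested.

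The ratio of Ace to Mme was higher in every tumor of adapted cells than in any original/B6129SF1 tumor. Ace was 0.087-fold to 1.83-fold the Mme level in the original/B6129SF1 tumors and 26.6-fold to 99.6-fold in the tumors of adapted cells. The summed FPKM of the 8 genes averaged 144.9 in original/B6129SF1, 146.8 in adapted/B6129SF1 and 139.5 in adapted/C57BL/6. The original/B6129SF1 mean depended on replicate 2, since replicates 1, 2 and 3 summed to 105, 206 and 124 FPKM. Tumors of adapted cells summed to between 126 and 166 FPKM. Mme made up 10.2%, 57.2% and 10.2% of that sum in the original/B6129SF1 tumors and at most 1.11% in those of adapted cells. Ace made up 4.98% to 18.7% of it in original/B6129SF1 and 29.5% to 39.6% in tumors of adapted cells. Since Mme chose this contrast, these shares are a description.

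**Figure D3:**
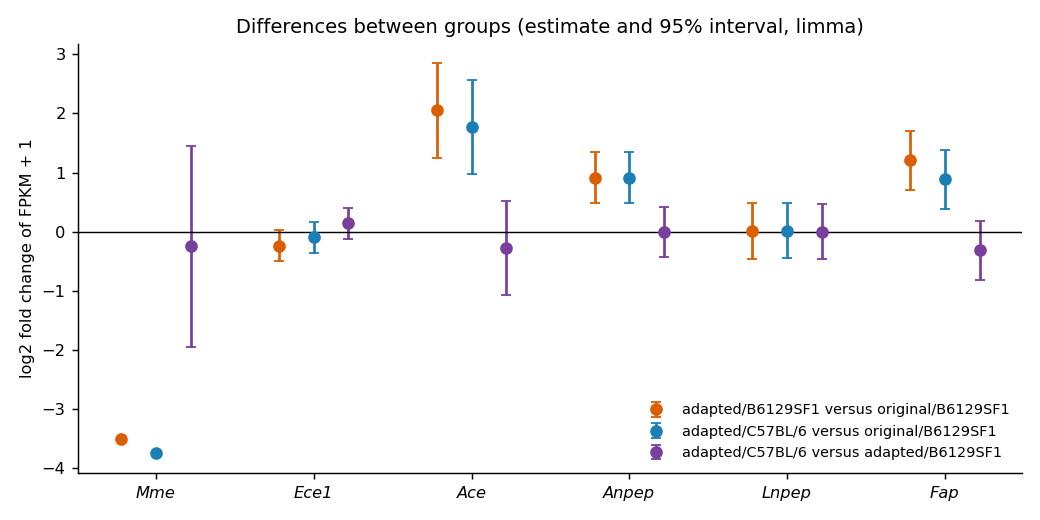
Log2 fold change of FPKM + 1 for the 6 genes tested, in 3 comparisons, as the limma estimate with its 95% interval. The 2 estimates of Mme against original/B6129SF1 carry no interval because Mme was picked for that difference. Ace, Anpep and Fap lie above 0 against original/B6129SF1, Ece1 and Lnpep have intervals that include 0, and every interval of adapted/C57BL/6 against adapted/B6129SF1 includes 0.

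Of the 3 aminopeptidase genes in the set, Anpep had a difference past the adjusted p. Aminopeptidase N is a classical surface antigen of myeloid cells. Anpep measured 9.46, 10.1 and 14.5 FPKM in the original/B6129SF1 tumors, 21.6, 21.9 and 22.5 in adapted/B6129SF1, and 25.6, 16.7 and 24.6 in adapted/C57BL/6. All tumors of adapted cells lay above all original/B6129SF1 tumors, by 1.15-fold at the nearest pair. The log2 fold change was 0.92 in adapted/B6129SF1 (limma, standard error 0.19, adjusted p = 0.0237) and 0.91 in adapted/C57BL/6 (limma, standard error 0.19, adjusted p = 0.0261). Both fell short of the log2 fold threshold of 1. At an adjusted p under 0.05 alone 8.28% and 6.75% of all genes passed in these comparisons.

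The side of the thresholds on which Anpep fell changed with single tumors. Its adjusted p was at most 0.0818 in adapted/B6129SF1 and 0.109 in adapted/C57BL/6 as tumors were left out in turn, and it rose above 0.05 in adapted/B6129SF1 without original/B6129SF1 replicate 1 or 2, or without adapted/B6129SF1 replicate 2 or 3. For adapted/C57BL/6 the same happened without original/B6129SF1 replicate 1 or 2, or without adapted/C57BL/6 replicate 1 or 3. It was also above 0.05 with both muscle-rich tumors left out (adjusted p = 0.0622 in adapted/B6129SF1 and 0.0818 in adapted/C57BL/6 from limma). In the other direction, Anpep passed the fold threshold and was called without original/B6129SF1 replicate 3, at a log2 fold change of 1.09 in both comparisons (adjusted p = 0.0333 and 0.0285 from limma). It was also called in adapted/C57BL/6 without adapted/C57BL/6 replicate 2, at 1.10 (adjusted p = 0.0173 from limma). Relative to the macrophage markers, Anpep was 0.369% to 0.567% in original/B6129SF1, 0.554% to 0.81% in adapted/B6129SF1 and 0.75% to 0.963% in adapted/C57BL/6. On this scale original/B6129SF1 and adapted/B6129SF1 overlapped slightly, and original/B6129SF1 and adapted/C57BL/6 did not. Relative to the fibroblast marker sum Anpep was 0.724% to 1.21% in original/B6129SF1 and 0.965% to 1.73% in the tumors of adapted cells, with overlap. Relative to the endothelial marker sum it was 10.2% to 12.5% and 13.4% to 22.2%, without overlap. The part of macrophage, fibroblast and endothelial content in the Anpep difference was not tested.

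Lnpep, which encodes the insulin-regulated aminopeptidase that also cuts oxytocin and vasopressin, did not pass the test in any comparison. It measured 25.6, 15.3 and 23.6 FPKM in the original/B6129SF1 tumors, 23.8, 23.8 and 16.9 in adapted/B6129SF1, and 24.6, 19.9 and 19.7 in adapted/C57BL/6. The groups overlapped throughout. The log2 fold change was 0.01 in adapted/B6129SF1 (95% interval -0.46 to 0.48) and 0.02 in adapted/C57BL/6 (95% interval -0.45 to 0.49), and its sign turned as tumors were left out. Enpep, which encodes the glutamyl aminopeptidase that trims angiotensin II, was at most 0.322 FPKM in any tumor. The exact two-sided permutation test gave p = 0.6 for Enpep in adapted/B6129SF1 and p = 1 in adapted/C57BL/6, where 3 tumors against 3 cannot give less than 0.1.

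Fap was low in level but higher in every tumor of adapted cells. It measured 1.16, 1.10 and 0.617 FPKM in the original/B6129SF1 tumors, 3.56, 2.55 and 4.55 in adapted/B6129SF1, and 3.23, 2.82 and 1.88 in adapted/C57BL/6. The groups did not overlap, and the lowest tumor of adapted cells was 1.63-fold the highest original/B6129SF1 tumor. Since original/B6129SF1 replicate 3 was under 1 FPKM, Fap passed the filter only through the tumors of adapted cells, where it was high. Its test results are therefore a description. The rise was 3.71-fold by the means in adapted/B6129SF1, or 1.21 on the log2 scale (limma, standard error 0.22, adjusted p = 0.0161). The call was kept with no filter on low values and lost without original/B6129SF1 replicate 3 (adjusted p = 0.0677 from limma). In adapted/C57BL/6 the means differed 2.76-fold, or 0.89 on the log2 scale (limma, standard error 0.22, adjusted p = 0.0479), short of the fold threshold, and its adjusted p reached 0.142 as tumors were left out in turn. At these levels the pseudocount of 1 reduces the fold change, and with 0.1 the adapted/C57BL/6 value was 1.38 and was called (adjusted p = 0.038 from limma).

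Relative to fibroblast markers, Fap was 0.0515% to 0.0959% of their sum in original/B6129SF1, 0.194% to 0.239% in adapted/B6129SF1 and 0.118% to 0.219% in adapted/C57BL/6, without overlap between original and adapted tumors. No fibroblast marker was called in adapted/B6129SF1, and 2 of 12, Thy1 and Fbln2, were called higher in adapted/C57BL/6. Pericyte and smooth muscle markers summed to 22.3 to 33.2 FPKM in original/B6129SF1. The sum was 42.4 to 101 FPKM in adapted/B6129SF1 and 55.9 to 63.3 in adapted/C57BL/6. Its rise was mostly that of the smooth muscle actin gene Acta2, which averaged 11.0, 45.1 and 41.1 FPKM in these 3 groups. Of the 7 markers tested, 5 had a higher and 2 a lower mean log2 value in each comparison. Acta2 was called higher and Cspg4 lower in both comparisons, and Cnn1 was called higher in adapted/C57BL/6. As a share of the pericyte sum Fap was 2.11% to 4.95% in original/B6129SF1, 4.48% to 8.15% in adapted/B6129SF1 and 2.97% to 5.68% in adapted/C57BL/6, with overlap. The part of pericyte content in the Fap difference was not tested.

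Dpp4, the nearest relative of Fap in the set, was weakly expressed and variable. It measured 0.224, 0.324 and 0.314 FPKM in the original/B6129SF1 tumors, 0.219, 0.882 and 1.52 in adapted/B6129SF1, and 0.724, 0.338 and 0.487 in adapted/C57BL/6. The adapted/B6129SF1 tumors spanned the original/B6129SF1 range, and the adapted/C57BL/6 tumors lay just above it. The exact two-sided permutation test gave p = 0.4 in adapted/B6129SF1 and p = 0.1 in adapted/C57BL/6, the latter the smallest p that 3 against 3 allows.

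**Figure D4:**
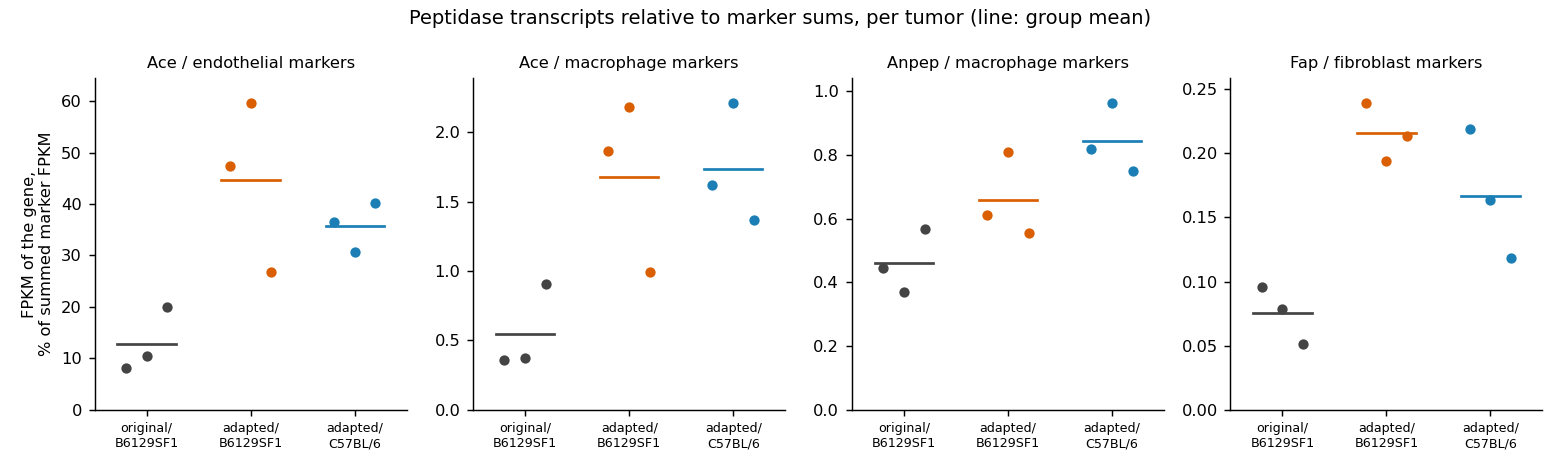
Ace, Anpep and Fap as a percent of the summed FPKM of endothelial, macrophage or fibroblast markers in each tumor, with linear axes from 0 and a line for the group mean. Ace lies at 8.11% to 20.0% of the endothelial sum in original/B6129SF1 and at 26.9% to 59.7% in the tumors of adapted cells, and Fap relative to fibroblast markers separates the groups in the same way.

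No difference between host strains was detected for these genes. Between adapted/C57BL/6 and adapted/B6129SF1, which hold the same cells in different hosts, 0 of the 6 genes tested were called by limma and 0 had an unadjusted p under 0.05. The background was 0.0292% of all genes called and 6.27% with an unadjusted p under 0.05. Mme, which was not picked on this pair, had a log2 fold change of -0.24 (95% interval -1.95 to 1.46, adjusted p = 0.969 from limma). The interval is wide because the spread between tumors is estimated over all 9, original/B6129SF1 replicate 2 included. The log2 fold changes of the other 5 genes lay between -0.32 for Fap (95% interval -0.82 to 0.18) and 0.15 for Ece1 (95% interval -0.12 to 0.41). For Ace the interval was -1.07 to 0.52, so a difference between hosts of about the size of the fold threshold was within the error.

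Over the 6 tumors of adapted cells against the 3 original/B6129SF1 tumors, Mme lay wholly below, and Ace, Anpep and Fap lay wholly above. Among all genes tested 8.54% lay wholly above and 10.6% wholly below, together 19.2%. Taken pair by pair, adapted/B6129SF1 and original/B6129SF1 did not overlap for 29.6% of all genes, adapted/C57BL/6 and original/B6129SF1 for 32.8%, and both adapted groups for 11.7%. The order of levels also differed between groups. In original/B6129SF1 it ran Ece1, Mme, Lnpep, Ace, Anpep, Fap, Dpp4, Enpep by mean FPKM, and neighbours overlapped from Ece1 down to Anpep but not below. The place of Mme depended on replicate 2, since by group median Mme, at 12.6 FPKM, lay below Lnpep, at 23.6 FPKM. In adapted/B6129SF1 the order by mean ran Ace, Ece1, Anpep, Lnpep, Fap, Mme, Dpp4, Enpep. Ece1 led Ace in adapted/C57BL/6, and the remaining order was the same. In both adapted groups Ace overlapped Ece1, Anpep overlapped Lnpep and Mme overlapped neither Fap above it nor Lnpep.

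Patterns most like those of the other genes were found in the same way as for Mme, over 9 tumors. For Ace they were Ctsz (r = 0.961), Tpra1 (r = 0.955), Anpep (r = 0.944), Ptk2b and Cln3 (r = 0.932 each). For Anpep they were Selplg (r = 0.973), Csf2ra (r = 0.968), Cln3 (r = 0.967), Irak4 (r = 0.964) and Tmem51 (r = 0.96). Selplg encodes a selectin ligand of leukocytes and Csf2ra a subunit of the GM-CSF receptor. For Ece1 the closest were Ifit2 (r = 0.952) and Rab34 (r = 0.948), and for Lnpep Cdk12 (r = 0.942). These values are descriptions and were not tested.

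None of the related peptidases outside the set was called. Of 40 listed relatives, 35 had a row and 19 were tested, and 0 were called by limma in any of the 3 comparisons. The shares of all genes called were 3.22%, 3.09% and 0.0292%, so 0 of 19 does not set the relatives apart. An unadjusted p under 0.05 was reached by 7 in adapted/B6129SF1, 3 in adapted/C57BL/6 and 1 between the adapted groups, where the backgrounds were 26.5%, 24.4% and 6.27% of all genes. Erap1, which encodes the endoplasmic reticulum aminopeptidase that trims peptides for MHC class I, measured 18.3, 11.2 and 12.6 FPKM in original/B6129SF1 and 25.4, 25.1 and 34.8 in adapted/C57BL/6. These groups did not overlap, and the log2 fold change of 0.98 (adjusted p = 0.0356 from limma) fell just short of the fold threshold. In adapted/B6129SF1 Erap1 measured 15.5, 21.9 and 24.3 FPKM, with a log2 fold change of 0.53 (adjusted p = 0.172 from limma). In the other direction, Npepps, Dpp3 and Xpnpep1 lay wholly below the original/B6129SF1 tumors in all 6 tumors of adapted cells, as did 10.6% of all genes tested. Npepps lay between 20.4 and 26.4 FPKM there and between 29.5 and 30.4 in original/B6129SF1. The adjusted p of these genes was at least 0.073 from limma. Ecel1 and Mmel1, close relatives of Mme, were each under 0.1 FPKM in all tumors.

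Peptides that these enzymes cut were read from a list of 29 ligand genes, of which 28 had a row and 9 were tested. Called higher were Cxcl9 and Ccl5 in adapted/B6129SF1, against 2.36% of all genes, and Cxcl9, Cxcl10 and Ccl5 in adapted/C57BL/6, against 2.42%. Their proteins are chemokines that attract T cells and are trimmed by dipeptidyl peptidase 4. Cxcl9 measured 15.0, 10.7 and 10.1 FPKM in original/B6129SF1, 38.6, 111 and 124 in adapted/B6129SF1, and 140.0, 108 and 188 in adapted/C57BL/6. Its log2 fold change was 2.69 in adapted/B6129SF1 and 3.49 in adapted/C57BL/6 (adjusted p = 0.00933 and 0.00305 from limma). Cxcl10 rose by 1.84 on the log2 scale in adapted/C57BL/6 (adjusted p = 0.0377 from limma), and had a log2 fold change of 0.58 in adapted/B6129SF1 (adjusted p = 0.415 from limma). The call of Cxcl10 was lost without original/B6129SF1 replicate 1 or 3, without any 1 of the adapted/C57BL/6 tumors, with both muscle-rich tumors left out and with a replicate block. For Ccl5 the rise was 1.69 in adapted/B6129SF1 and 1.67 in adapted/C57BL/6 (limma, adjusted p = 0.00746 and 0.00645). T cell markers were higher beside them, summing to 3.81 to 6.05 FPKM in original/B6129SF1, 6.30 to 32.6 in adapted/B6129SF1 and 20.8 to 30.9 in adapted/C57BL/6, and the part of T cell content was not tested.

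**Figure D5:**
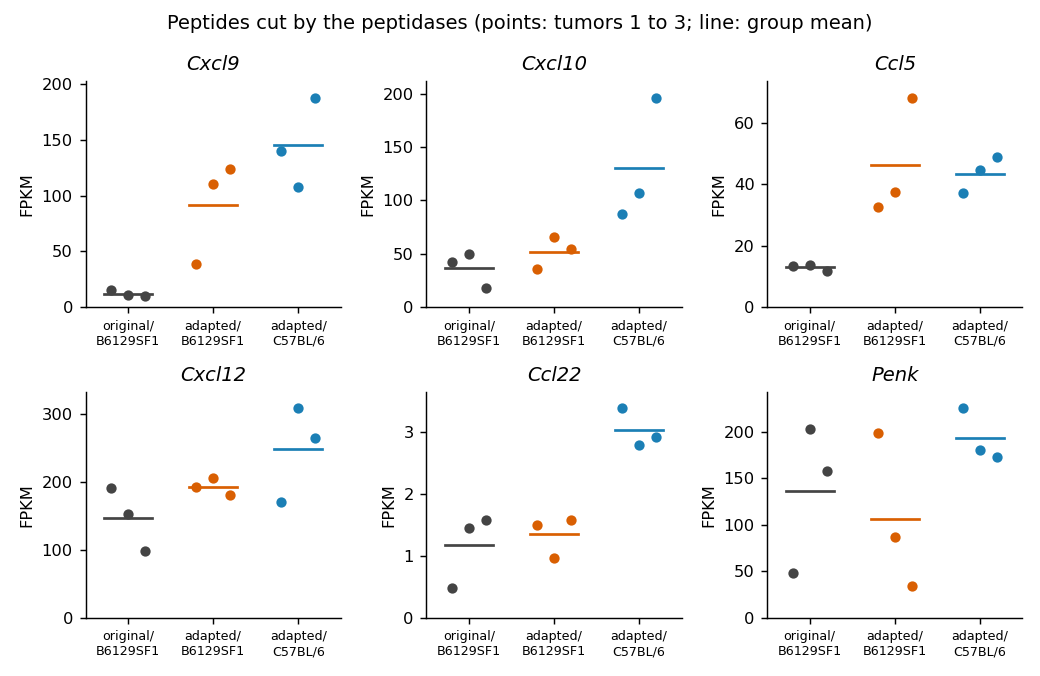
FPKM of 6 genes for peptides cut by the peptidases, by tumor, with linear axes from 0 and a line for the group mean. Cxcl9 and Ccl5 lie higher in all 6 tumors of adapted cells than in the original/B6129SF1 tumors, Cxcl10 separates the adapted/C57BL/6 tumors, and Penk overlaps between original/B6129SF1 and adapted/B6129SF1.

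Transcripts of the classical neprilysin substrates ranged from abundant to near 0. Penk, which encodes the precursor of the enkephalins, measured 47.7, 202 and 158 FPKM in original/B6129SF1, 198, 87.0 and 34.4 in adapted/B6129SF1, and 225, 180 and 173 in adapted/C57BL/6. It did not pass the test in adapted/B6129SF1 or adapted/C57BL/6 (adjusted p = 0.695 and 0.55 from limma). Edn1, the endothelin 1 precursor gene and substrate of Ece1, lay between 0.852 and 3.13 FPKM (adjusted p = 0.878 and 0.803 from limma). Tac1, the substance P precursor gene, was at most 0.195 FPKM in any tumor. Angiotensinogen (Agt) reached at most 1.77 FPKM and renin (Ren1) 0.166 FPKM, and neither was tested.

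Of 33 listed receptor genes for these peptides, 29 had a row and 9 were tested, and 0 were called by limma in any comparison. The shares of all genes called were 3.22%, 3.09% and 0.0292%. An unadjusted p under 0.05 from limma was reached by 3 in adapted/B6129SF1 and 5 in adapted/C57BL/6, Bdkrb2 included, and 0 between the adapted groups. The backgrounds at that p were 26.5%, 24.4% and 6.27% of all genes. Ramp3, a receptor partner for adrenomedullin, measured 12.9, 14.03 and 13.3 FPKM in original/B6129SF1, 7.16, 8.04 and 5.88 in adapted/B6129SF1, and 9.59, 7.87 and 7.31 in adapted/C57BL/6. All tumors of adapted cells lay below the original/B6129SF1 tumors. Its log2 fold change was -0.85 in adapted/B6129SF1 and -0.65 in adapted/C57BL/6 (adjusted p = 0.00967 and 0.0256 from limma), short of the fold threshold. Ramp2, also a receptor partner for adrenomedullin, went the other way and was higher in all 6 tumors of adapted cells. Its log2 fold changes were 0.57 and 0.44 (adjusted p = 0.0939 and 0.187 from limma). Those of the receptor gene Calcrl were 0.28 and 0.07 (adjusted p = 0.397 and 0.857 from limma). The ligand of the bradykinin B2 receptor gene Bdkrb2 is degraded by angiotensin-converting enzyme. Bdkrb2 averaged 0.432 ± 0.0837 FPKM in original/B6129SF1, 1.24 ± 0.102 in adapted/B6129SF1 and 0.916 ± 0.192 in adapted/C57BL/6. The log2 fold changes were 0.64 in adapted/B6129SF1 and 0.42 in adapted/C57BL/6. Only tumors of adapted cells reached 1 FPKM, so Bdkrb2 passed the filter through the groups where it was high. These differences are a description. Agtr1a, the main angiotensin II receptor gene, was at most 0.795 FPKM and was not tested.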

How the data were processed

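Whole-tumor RNA of 9 tumors was sequenced as paired-end reads. According to the submitters' processing notes and the methods, the authors aligned reads to mm10 with HISAT2 and deposited FPKM from Cuffnorm, with no pooling of tumors. FPKM are not counts, so no count test was used. Tumors were grouped by their labels, which call them biological replicates. FPKM of at least 1 in at least 3 tumors kept 10263 of 17369 genes, tested as log2(FPKM + 1), which understates fold changes of low genes, in 1 limma model of 3 groups (version 3.58.1, R 4.3.3, eBayes allowing a trend of variance with level), with Benjamini-Hochberg adjustment over all genes tested. Dpp4 and Enpep, under the filter, were compared by exact permutation tests with scipy 1.17.1. The procedure was tested on simulated data with normal noise of equal spread in all groups, and no result given here rests on that run.

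The genes, lists and tests were chosen with earlier results of these data known. Genes named are the 8 peptidases, listed relatives, ligands, receptors, partners and markers that were called or that pair with a peptidase described, and the 5 genes of highest Pearson's r with a peptidase of at least 5 FPKM. Erap1, Npepps, Dpp3, Xpnpep1, Ecel1, Mmel1, Ramp2, Ramp3, Calcrl, Cav1, Plaur, Cpe, Tg, Pax8, Fcgr1 and the genes high in 1 original tumor were named after their values were seen. Alternatives were another pseudocount, filter and scaling, only the groups compared, no trend, a replicate block, muscle-rich tumors left out, each tumor left out and no fold threshold. The number of tumors limits the precision. Genes are given by symbol, since no mouse annotation was used here.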

Additional observations from a re-analysis of the deposited data

How the results depend on the processing

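Mme is left out of the counts of peptidases called. Fap, which passed the filter only through the tumors of adapted cells, is kept in them. In adapted/B6129SF1 against original/B6129SF1 that count was 2, and 1 at a mean of at least 5 FPKM, where Fap was not tested. It was 3 at an adjusted p under 0.05 alone, and 2 with each tumor left out, though without original/B6129SF1 replicate 3 the genes called were Ace and Anpep in place of Ace and Fap. In adapted/C57BL/6 the count of 1 became 2 with a pseudocount of 0.1, 0 with the replicate block, 0 with muscle-rich tumors left out and 3 by adjusted p alone, and ranged from 0 to 2 with tumors left out. Relatives called in adapted/C57BL/6 went from 0 to 1 with the pseudocount of 0.1 or by adjusted p alone, and from 0 to 1 with tumors left out. Ligands and receptors called went from 2 to 4 in adapted/B6129SF1, Bdkrb2 included, and from 3 to 5 in adapted/C57BL/6 by adjusted p alone. Over all genes, 330 called in adapted/B6129SF1 became 219 at a mean of at least 5 FPKM and 850 by adjusted p alone, with 141 to 358 as tumors were left out, lowest without original/B6129SF1 replicate 3. In adapted/C57BL/6, 317 became 199 and 693, with 156 to 347, lowest without adapted/C57BL/6 replicate 3. Between the adapted groups 3 became 1 with no filter and 0 at a mean of at least 5 FPKM, with only the groups compared and with the replicate block, and 0 to 6 as tumors were left out.

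Lnpep changed sign. Its log2 fold change ranged from -0.20 to 0.17 in adapted/B6129SF1 and from -0.20 to 0.15 in adapted/C57BL/6 as tumors were left out, and was -0.083 in adapted/C57BL/6 with muscle-rich tumors left out. Between the adapted groups it was -0.0068 with median-ratio scaling, -0.0021 with quantile normalization, -0.25 with muscle-rich tumors left out and -0.15 to 0.083 with tumors left out, and that of Anpep was -0.11 to 0.18. The cause was not tested. Replicate numbers name different animals, and same-numbered tumors deviated together with correlations of only -0.39 to 0.61. Of 9 tumors, 3 correlated best with their own number. With the replicate block 242, 245 and 0 genes were called in the 3 comparisons. With 3 tumors a group and no counts, small changes of low genes such as Dpp4 and Enpep were not detectable.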

Other observations

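Genes for proteins that bind or sort the peptidases were listed as well, and 0 of the 7 tested were called by limma in any comparison, with 3, 1 and 1 at an unadjusted p under 0.05. Among all genes tested 3.22%, 3.09% and 0.0292% were called, and 26.5%, 24.4% and 6.27% had an unadjusted p under 0.05. Cav1, the caveolin 1 gene, measured 308.5, 756 and 315 FPKM in original/B6129SF1 replicates 1, 2 and 3, so it was highest in the tumor that was highest in Mme. In tumors of adapted cells it lay between 187 and 307 FPKM, just below the lowest original/B6129SF1 tumor, and it did not pass the test (adjusted p = 0.321 in adapted/B6129SF1 and 0.163 in adapted/C57BL/6 from limma). Ada, the adenosine deaminase gene, whose protein docks on dipeptidyl peptidase 4 in humans, lay between 3.50 and 5.35 FPKM in all tumors and did not pass the test (adjusted p = 0.532 and 0.504 from limma). Plaur, the urokinase receptor gene, had a log2 fold change of -0.71 in adapted/B6129SF1 (adjusted p = 0.0321 from limma), short of the fold threshold, and of -0.34 in adapted/C57BL/6 (adjusted p = 0.229 from limma), where the groups overlapped.

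Cpe, the carboxypeptidase E gene, whose protein works inside secretory granules on peptide precursors such as that of the enkephalins, had the highest mean of the related peptidases, 351 FPKM in original/B6129SF1, 369 in adapted/B6129SF1 and 363 in adapted/C57BL/6. The groups overlapped in each comparison.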
